A study of Homo sapiens with 12 samples.

Results

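The clustered histone genes are the genes, listed under their older symbols HIST1H to HIST4H, that supply the linker histone H1 and the core histones H2A, H2B, H3 and H4. A symbol was taken as a member when it began with HIST, a cluster number and H, and its transcript with the largest average in the 12 libraries stood for it. This gave 71 members of 44786 gene symbols in the table, from 102 of its 197782 transcripts, and 15 members had several transcripts. The members were 6 H1, 17 H2A, 18 H2B, 15 H3 and 15 H4 genes. By cluster, 55 were HIST1 genes on chromosome 6, 12 were HIST2 genes and 3 were HIST3 genes on chromosome 1, and 1 was the HIST4 gene on chromosome 12.

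RNA was sequenced from U937, a human myelomonocytic leukemia line, as rRNA-depleted, strand-specific libraries. Each of 4 groups held 3 libraries: untreated cells (libraries 1 to 3), cells given 200 nM decitabine (DAC, 4 to 6), 1 µM all-trans retinoic acid (ATRA, 7 to 9) or both (DAC+ATRA, 10 to 12). All grew for 3 days in medium with 20% FCS and 5 ng/ml GM-CSF, and the labels give 96 h for untreated cells and 72 h for the treated groups. The deposited protocol and the paper instead give 72 h for all cells, and the paper has ATRA added only after 48 h. If the labels hold, treatment and time cannot be told apart in the comparisons with untreated cells. DAC is built into new DNA and inhibits the enzymes that methylate it, and ATRA acts through nuclear receptors for retinoids. The comparisons ask what each agent did alone, what both did together, and whether their effects added up.

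The deposited values were read counts per transcript divided by a size factor for each library, called normalised read counts here. The counts summed to between 8042435 and 10683593 reads per library, and 3 reads corresponded to 2.497 to 3.71 normalised reads. Mitochondrial transcripts held 36.3% to 42.5% of the reads. The replicates were technical triplicates by the study's own description, so every p-value measures only the spread between libraries, which may be technical. In bulk RNA, fewer cells with a transcript and less of it per cell cannot be told apart. Library 9 (ATRA) stood below libraries 7 and 8 for most members past the filter and for the marker gene MPO, so calls for ATRA that differ without it are named below.

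Most histone protein is made during S phase, when new DNA is packed into nucleosomes of H2A, H2B, H3 and H4, with H1 on the linker DNA. The mRNAs of the clustered genes usually have no introns and no poly(A) tail: they end just after a short stem-loop that is bound by SLBP, and U7 snRNP directs the cleavage. Some clustered genes can also give longer, polyadenylated transcripts that run past the stem-loop.

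A stem-loop was found in 69 of the 71 members, 23 to 68 bases after the stop codon, with a median of 36. It was searched as 6 stem bases, a loop of 4 and the matching stem, on the strand of the gene. The stem began with GGCCCT in all 15 H4 genes and with GGCTCT in the 54 others found. No match was found in HIST1H2AG and HIST1H2AK. The stem-loops of an H1, an H2B, an H3 and an H4 gene whose reads are described below show the shared element. Capitals mark the stem. They are read 5′ to 3′ on the gene's strand from hg38 at chr6:26055739-26055764 (minus strand), chr6:27146361-27146386 (minus), chr6:27810511-27810536 (plus) and chr6:26026896-26026921 (minus).
HIST1H1C: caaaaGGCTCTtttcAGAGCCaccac
HIST1H2BK: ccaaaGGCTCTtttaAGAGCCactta
HIST1H3H: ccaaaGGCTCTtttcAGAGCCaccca
HIST1H4B: ccaatGGCCCTtttcAGGGCCgccca

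The members differed widely in level. Per kb of transcript, HIST1H1C, which encodes a linker histone, had 3611 normalised reads in untreated cells and HIST1H2BK had 2301. With ATRA they had 4429.9 and 2823, and the order was the other way with DAC, at 7747 and 9416, and with DAC+ATRA, at 9045 and 11881. Over all 12 libraries the next genes of their types were far lower, at 679.9 per kb for HIST1H2BH and 82.4 for HIST1H1E. Among H2A genes the highest mean per kb was that of HIST2H2AC in untreated cells (906) and with ATRA (1121), of HIST1H2AG with DAC (636) and of HIST3H2A with DAC+ATRA (1021). Among H3 genes it was that of HIST1H3C in untreated cells (152, with HIST1H3B and HIST1H3H at 142 each) and with ATRA (194), and of HIST1H3H with DAC (219.8) and DAC+ATRA (270.4). HIST1H4E and HIST1H4I were the first and second H4 genes in all 4 groups, at 390.4 and 208 in untreated cells. HIST1H1C held 36.2% of the reads of the 71 members in untreated cells, 40.7% with DAC and 38.2% with DAC+ATRA, and HIST1H2BK 15.6%, 33.5% and 34.0%.

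Of the 71 members, 48 had a value of at least 10 in at least 3 libraries, and 47 of these entered the test, which was limited to protein-coding transcripts. The transcript of HIST1H4H is annotated as a target of nonsense-mediated decay and was tested only among transcripts of any type. HIST1H2AK stood just inside the filter, with at least 10.5 in each of its 3 highest libraries, and HIST1H3J just outside, with 7.39 as the lowest of its 3 highest. The other 23 members were under the filter, and HIST1H3D, HIST2H3A, HIST2H3PS2 and HIST2H4B had no read in any library. All windows of HIST2H3A and HIST2H4B have other copies in hg38, and only 11 of 396 bases of HIST2H4B and 17 of 503 of HIST1H3D were free of other transcripts, so a 0 may mean that reads could not be placed. HIST1H1A, HIST1H1T, HIST1H2AA, HIST1H2AC, HIST1H2AD, HIST1H2AM, HIST1H2BA, HIST1H2BB, HIST1H3I, HIST1H3J, HIST1H4F, HIST1H4G, HIST1H4L, HIST2H2AA3, HIST2H2AA4, HIST2H3C, HIST2H4A, HIST3H3 and HIST4H4 had reads in at least 1 library. A filter on values lets a gene in through the group where it is high, so the counts below describe the 47 tested members and not all 71. HIST1H2AK, HIST1H3E, HIST1H3G, HIST2H2BF and HIST3H2BB reached 10 in 3 libraries only with DAC, and HIST1H1B, HIST1H2BC and HIST1H4A only without it. Those of them called against untreated cells had to differ to be tested, so their levels are described with no p-value as support. Among the other 39 tested members, 10 rose and 9 fell with DAC and 14 rose and 11 fell with DAC+ATRA, where 30.7% and 8.7% of all 8784 transcripts tested were called higher and lower with DAC and 32.6% and 14.2% with DAC+ATRA. Among the 29 members at 10 or more in every library, 9 rose and 8 fell with DAC and 12 rose and 10 fell with DAC+ATRA, where 26.9% and 11.01% of all 5893 transcripts at that filter were called higher and lower with DAC and 27.8% and 17.7% with DAC+ATRA.

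Copies of histone genes resemble each other, which limits how reads can be placed. At least 1 other copy of the 50-base windows was found in hg38 for 57.2% of the windows of HIST1H2BK, 74.0% of those of HIST2H2BF and 92.1% and 92.6% of those of HIST1H4J and HIST1H4K. HIST1H1C, HIST1H3H, HIST1H4E and 29 other members had no such window. HIST1H2BC and HIST2H2BF overlapped other transcripts on their strand, which left 64 of 460 and 68 of 492 bases to themselves.

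**Figure D1:**
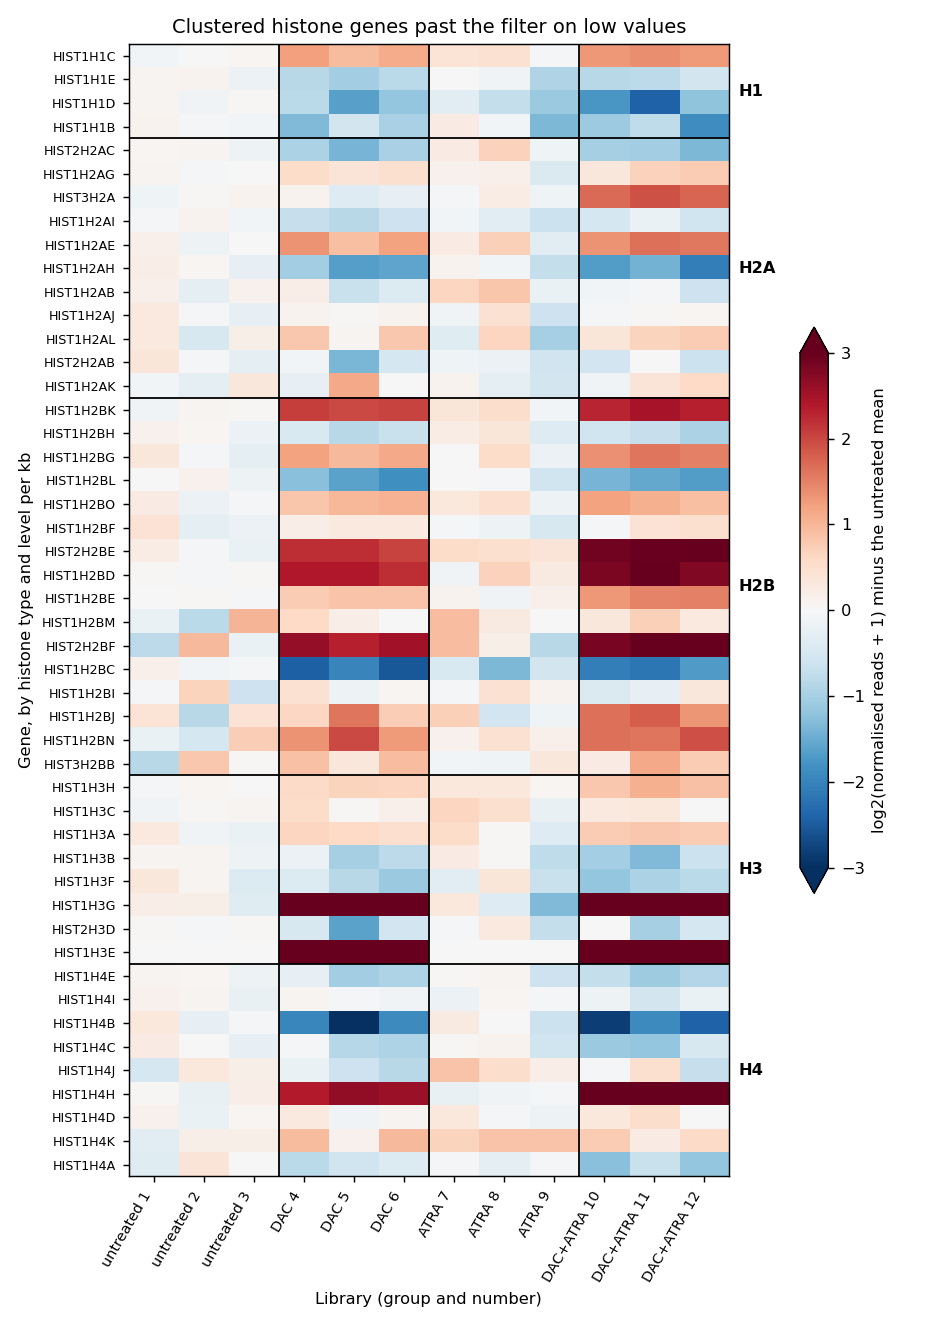
Each of the 48 members past the filter (vertical axis, by histone type and level per kb) in each of the 12 libraries (horizontal axis), as log2(normalised reads + 1) minus the mean of the 3 untreated libraries, with the colour scale ending at -3 and 3. H2B genes such as HIST1H2BK and HIST2H2BE are high in libraries 4 to 6 and 10 to 12, while HIST1H4B and HIST1H2BC are low there.

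Summed over all 71 members, the untreated libraries held 7247, 7393 and 7215 normalised reads and the DAC libraries 14905, 12910.2 and 13887. The ATRA libraries held 8859, 9451 and 6424, and the DAC+ATRA libraries 16639, 18421 and 16891. Every library with DAC lay above every library without it, and the ATRA libraries spanned the untreated ones. The mean was 1.91 times the untreated mean with DAC, 1.13 times with ATRA (1.26 without library 9) and 2.38 times with DAC+ATRA. No test was made on these sums. With equal library totals the ratios were 1.74 for DAC and 2.14 for DAC+ATRA.

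Most of the increase of the sum lay in HIST1H1C and HIST1H2BK. Without both genes, chosen after their values were seen, the sum of the other 69 members was 1.02 times the untreated mean with DAC and 1.38 times with DAC+ATRA. The H2B sum was 2.82 times untreated with DAC and 3.59 times with DAC+ATRA, and 1.29 and 1.69 times without HIST1H2BK. The H1 sum was 2.03 and 2.37 times untreated, but 0.512 and 0.468 times without HIST1H1C, where HIST1H1B, HIST1H1D and HIST1H1E held most of the reads. The H2A sum was 0.832 times untreated with DAC and 1.35 times with DAC+ATRA, but 0.819 and 0.892 times without HIST3H2A. The H3 sum was 1.37 and 1.57 times untreated. The H4 sum was 0.950 and 1.00 times untreated, but 0.677 and 0.600 times without HIST1H4H, and 0.676 and 0.598 times without the members that share bases or have several transcripts. HIST3H2A and HIST1H4H were left out after their values were seen. H2B genes held 28.6% of the members' reads in untreated cells, 42.3% with DAC and 43.1% with DAC+ATRA, and H2A genes 20.4%, 8.86% and 11.5%.

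**Figure D2:**
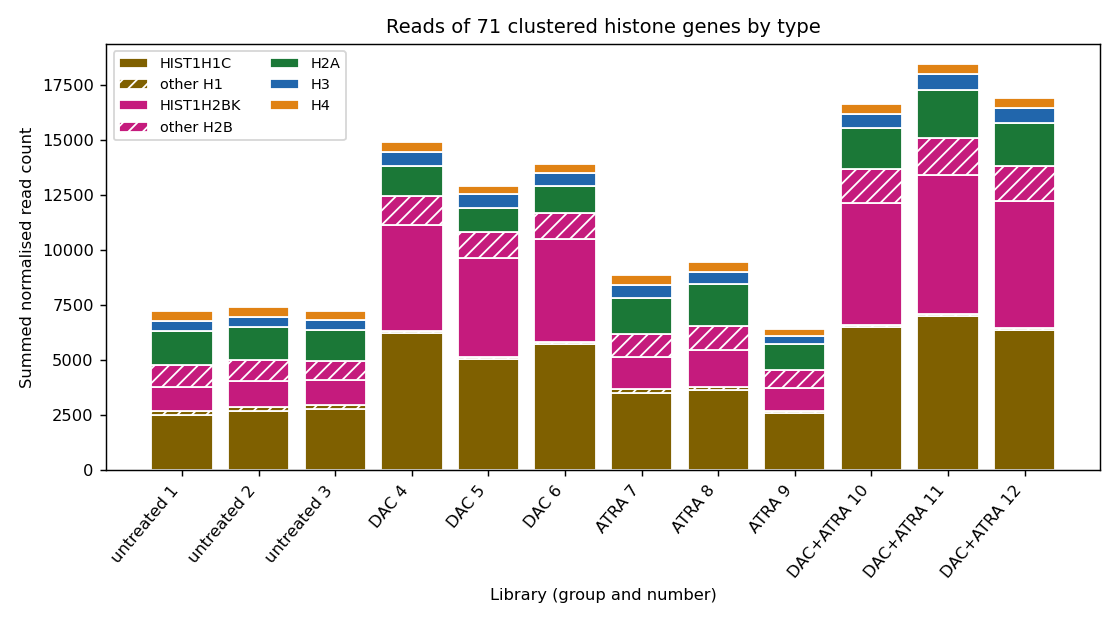
Normalised reads of the 71 members (vertical axis, stacked from 0) in each library (horizontal axis), with HIST1H1C and HIST1H2BK set apart from the other H1 and H2B genes. The stacks reach 7215 to 7393 in untreated libraries and 16639 to 18421 with DAC+ATRA, and HIST1H1C and HIST1H2BK fill most of the difference.

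With DAC alone, 13 of the 47 tested members rose and 10 fell past an adjusted p of 0.01 by limma. Of all 8784 transcripts tested, 39.4% were called in this comparison, 30.7% higher and 8.7% lower. With equal library totals the lower share was 14.3% beside 13 members up and 10 down, and by edgeR with TMM it was 18.0% beside 13 and 13. The median log2 fold change was 0.12 over the members and 0.22 over all transcripts tested, and the members' median stayed the same with HIST1H3E, at 0 in untreated cells, set to its lower bound. H2B genes gave 8 of the 13 that rose, and H1, H2A and H4 genes gave 7 of the 10 that fell. The 8 include HIST2H2BF and the 13 also HIST1H3E and HIST1H3G, which passed the filter only with DAC. The 10 include HIST1H2BC, which passed only without it. The median was -0.92 for the 4 tested H1 genes, -0.17 for 11 H2A genes, 0.89 for 16 H2B genes, 0.41 for 8 H3 genes and -0.58 for 8 H4 genes. HIST1H1B, HIST1H2AK, HIST1H2BC, HIST2H2BF, HIST3H2BB, HIST1H3E, HIST1H3G and HIST1H4A, which passed the filter only with or only without DAC, are included. All type medians therefore depend on the filter. Over the other 39 tested members the median was 0.088.

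With ATRA alone, limma called 0 of the 47 members, where 9.22% of all transcripts were called, 6.47% higher and 2.76% lower. At an unadjusted p under 0.05 there were 7, where 26.2% of all transcripts were under it, but 1 without untreated library 1, 4 without library 8 and 11 without library 9, where 23.1%, 22.2% and 30.5% of all transcripts were. By edgeR and DESeq2 0 members were called. The share of transcripts called lower was 1.55% to 1.81% without an untreated library, 5.06% with equal library totals and 4.51% by edgeR with TMM. The log2 fold changes ran from -0.78 for HIST1H2BC to 0.79 for HIST1H4K, and the member nearest to the threshold was HIST2H2BE at 0.47 (SE 0.13, adjusted p = 0.0200). Without library 9, HIST1H1C at 0.44 (adjusted p = 0.00102) and HIST1H2BK at 0.45 (adjusted p = 7.61e-04) passed. Without untreated library 1, HIST2H2BE passed at 0.58 (adjusted p = 0.00912).

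With DAC+ATRA, 17 of the 47 members rose and 13 fell, where 46.8% of all transcripts were called, 32.6% higher and 14.2% lower. The median was 0.28 over the members and 0.20 over all transcripts. By type the medians were -0.98 for H1, 0.00 for H2A, 1.24 for H2B, 0.49 for H3 and -0.59 for H4 genes. These medians again include the members that passed the filter only with or only without DAC. Over the other 39 tested members the median was 0.197. All 13 members that rose with DAC also rose with DAC+ATRA, and 9 of the 10 that fell with DAC also fell. The shared untreated libraries favour such overlap, and no share over all transcripts is given beside it, so no agreement is read from it. HIST1H3E, HIST1H3G, HIST2H2BF and HIST1H2BC, which are among these members, passed the filter only with or only without DAC. HIST1H2AG, HIST1H2BJ, HIST1H3A and HIST3H2A rose, and HIST1H1B, HIST1H3B, HIST1H3F and HIST1H4C were lower, past the threshold with DAC+ATRA and not with DAC, and of these 8 only HIST3H2A differed between DAC+ATRA and DAC in a direct test. HIST1H1B, among the 13 that fell, passed the filter only without DAC, so its call was favoured by the filter. Neither with DAC nor with DAC+ATRA was a call made for HIST1H2AB, HIST1H2AJ, HIST1H2AK, HIST1H2AL, HIST1H2BF, HIST1H2BI, HIST1H2BM, HIST1H3C, HIST1H4A, HIST1H4D, HIST1H4I, HIST1H4J, HIST1H4K, HIST2H2AB, HIST2H3D and HIST3H2BB. Equal library totals moved no called log2 fold change by more than 0.15, less than the smallest called change of 0.60, so this scaling could turn no direction.

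All-transcript medians were 0.22 for DAC and 0.20 for DAC+ATRA with the deposited scaling, and 0.02 and 0.06 by edgeR with TMM. The shift moves every log2 fold change by about that amount, so values relative to the median are given for the main genes. Leaving out 1 library at a time, 20 of the 23 members called with DAC and 22 of the 30 called with DAC+ATRA were called every time. No such share was made over all transcripts, so these numbers are not compared with other genes. They include HIST1H3E, HIST1H3G, HIST2H2BF and HIST1H2BC, which passed the filter only with or only without DAC. With DAC, HIST1H1D lost its call without library 5 (-0.99, adjusted p = 0.0108), HIST1H2BH without library 1, 2 or 5 (adjusted p up to 0.0172) and HIST1H4E without library 1, 2, 5 or 6 (up to 0.0364). With DAC+ATRA, HIST1H1B (adjusted p up to 0.0611), HIST1H1E (0.0291), HIST1H2AG (0.0144), HIST1H2BJ (0.0191), HIST1H3A (0.0188), HIST1H3B (0.0190), HIST1H3F (0.0435) and HIST1H4C (0.0379) lost theirs without at least 1 of libraries 1 to 6 and 10 to 12, and the number that fell with DAC+ATRA was 8 without library 2 or 10 (11.03% and 11.4% of all transcripts). HIST1H3A passed with DAC without library 9 (0.00817), and with DAC+ATRA HIST1H2AI passed without library 9 or 11 (up to 0.00957). HIST1H4A also passed with DAC+ATRA without library 1, with no p-value given because it passed the filter only without DAC.

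**Figure D3:**
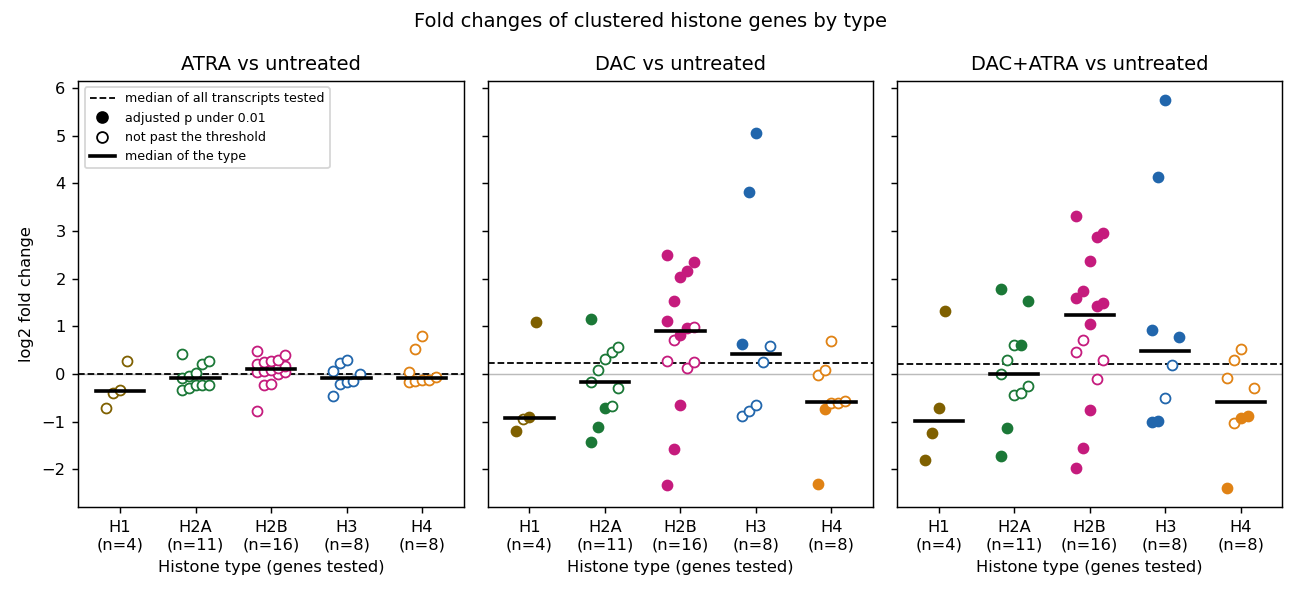
Log2 fold change (vertical axis) of each tested member by histone type (horizontal axis) for ATRA, DAC and DAC+ATRA against untreated cells, with filled points past an adjusted p of 0.01, bars at type medians and a dashed line at the median of all transcripts. H2B medians are 0.89 and 1.24 with DAC and DAC+ATRA, H1 medians -0.92 and -0.98, and the highest point is HIST1H3E, drawn at its fitted value although it had no reads in untreated cells. The medians include members that passed the filter only with or only without DAC.

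Among the 4 tested linker histone genes, only HIST1H1C was called higher. Its normalised read counts were 2487, 2676 and 2757 without treatment, 6210.1, 5066 and 5713 with DAC, 3505, 3637 and 2573 under ATRA and 6482, 6989 and 6364 under DAC+ATRA. All libraries with DAC were above all others, and ATRA libraries 7 and 8 lay above and library 9 within the untreated range. HIST1H1C rose by a log2 fold change of 1.10 (SE 0.12, adjusted p = 8.11e-08) with DAC and 1.32 (SE 0.12, adjusted p = 3.70e-09) with DAC+ATRA, or 0.87 and 1.12 relative to the median of all transcripts.

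HIST1H1D and HIST1H1E, which encode other replication-linked H1 proteins, went the other way. HIST1H1D counts were 89.2, 77.4 and 85.9 without treatment, 47.6, 26.3 and 36.9 with DAC, 66.5, 50.98 and 38.3 under ATRA and 24.4, 14.7 and 35.8 under DAC+ATRA. Every library with DAC and every ATRA library was below the lowest untreated one. HIST1H1D fell, at -1.20 (SE 0.28, adjusted p = 0.00121) with DAC and -1.79 (SE 0.28, adjusted p = 1.44e-05) with DAC+ATRA. HIST1H1E fell, at -0.89 (SE 0.21, adjusted p = 0.00144) and -0.72 (SE 0.21, adjusted p = 0.00654) in the same comparisons. HIST1H1B, which passed the filter only without DAC, stood at -0.95 with DAC, not past the threshold, and at -1.24 with DAC+ATRA. HIST1H1A and HIST1H1T, a gene known from testis, were under the filter and not tested. Their means were 0.308 and 0.306 in untreated cells, 3.76 and 1.05 with DAC and 2.38 and 1.61 with DAC+ATRA.

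H2B genes gave most of the increases. HIST1H2BK counts were 1064, 1196 and 1157 without treatment, 4820.0, 4486 and 4677 with DAC, 1468, 1648 and 1076 under ATRA and 5549, 6337 and 5758 under DAC+ATRA. The groups with DAC did not overlap those without it, and the lowest DAC+ATRA library was above the highest DAC library. HIST1H2BK was 4.09 times its untreated mean with DAC, a log2 fold change of 2.03 (SE 0.12, adjusted p = 1.26e-11), and 5.16 times with DAC+ATRA, at 2.37 (SE 0.12, adjusted p = 8.21e-13). Relative to the median of all transcripts these were 1.81 and 2.16.

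HIST2H2BE counts were 72.6, 61.0 and 54.5 without treatment, 294, 291 and 256 with DAC, 91.9, 87.4 and 81.6 under ATRA and 469, 496 and 505 under DAC+ATRA. The 4 groups did not overlap, in the order untreated, ATRA, DAC and DAC+ATRA. HIST2H2BE rose by 2.15 (SE 0.13, adjusted p = 2.98e-11) with DAC and 2.96 (SE 0.13, adjusted p = 1.38e-13) with DAC+ATRA. HIST1H2BD counts were 17.5, 16.4 and 17.5 without treatment, 95.1, 95.5 and 83.7 with DAC, 15.8, 28.2 and 20.8 under ATRA and 127, 149 and 122 under DAC+ATRA, again with all libraries with DAC above the rest. HIST1H2BD rose by 2.35 (SE 0.21, adjusted p = 6.12e-09) and 2.88 (SE 0.21, adjusted p = 1.93e-10). HIST2H2BF had 1, 6 and 2 reads in the untreated libraries and 18, 16 and 18 in the DAC libraries, a ratio of 6.39 (95% exact interval for counting error 3.12 to 14.8), and 11.5 (5.82 to 26.0) with DAC+ATRA.

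Smaller increases were called for HIST1H2BN (1.53 with DAC and 1.73 with DAC+ATRA), HIST1H2BG (1.11 and 1.497), HIST1H2BO (0.96 and 1.05) and HIST1H2BE (0.82 and 1.43). HIST1H2BA, the gene of a testis-specific H2B, was under the filter, with no read in any library without DAC. It had 12, 7 and 7 reads with DAC and 8, 6 and 6 with DAC+ATRA, at least 3.24-fold and 2.54-fold above a floor of 3 reads per untreated library. It was chosen for this pattern after its values were seen, together with HIST1H3E and HIST1H3I.

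HIST1H2BL and HIST1H2BH fell within the same type, and HIST1H2BC was lower. HIST1H2BC had 27, 23 and 23 reads in untreated libraries and 3, 5 and 3 with DAC, 5.999-fold lower (95% interval 3.16 to 12.5). With DAC+ATRA it had 5, 4 and 5 reads, 4.57-fold lower (2.56 to 8.77), and its call was lost when all transcripts of the symbol were summed (-0.85, adjusted p = 0.0541). HIST1H2BL counts were 166, 179 and 149 without treatment, 68.1, 53.6 and 44.8 with DAC, 165, 160.2 and 108 under ATRA and 61.5, 55.8 and 50.7 under DAC+ATRA. The libraries with DAC were all below the lowest library without it. HIST1H2BL fell, at -1.57 (SE 0.19, adjusted p = 5.09e-07) with DAC and -1.54 (SE 0.19, adjusted p = 5.12e-07) with DAC+ATRA, and HIST1H2BH, the H2B gene next in level to HIST1H2BK, stood at -0.65 (SE 0.17, adjusted p = 0.00256) and -0.74 (SE 0.17, adjusted p = 6.73e-04).

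Among H2A genes, HIST2H2AC and HIST1H2AH fell. HIST2H2AC counts were 467, 472 and 404 without treatment, 229, 169.5 and 228 with DAC, 533, 722 and 406 under ATRA and 221, 215 and 174 under DAC+ATRA. All libraries with DAC were below all others, and ATRA libraries 7 and 8 were above the untreated ones. HIST2H2AC fell, at -1.10 (SE 0.17, adjusted p = 2.25e-05) with DAC and -1.14 (SE 0.17, adjusted p = 1.27e-05) with DAC+ATRA. HIST1H2AH counts were 146, 132 and 107 without treatment, 61.6, 39.9 and 41.8 with DAC, 136, 120.2 and 77.4 under ATRA and 38.9, 47.4 and 29.7 under DAC+ATRA. Library 9 was the lowest without DAC, and still above the highest DAC library. HIST1H2AH fell, at -1.42 (SE 0.23, adjusted p = 2.71e-05) and -1.72 (SE 0.23, adjusted p = 1.92e-06). HIST1H2AE rose, at 1.15 with DAC and 1.53 with DAC+ATRA, and HIST1H2AG stood at 0.47 (SE 0.15, adjusted p = 0.0133) and 0.60 (SE 0.15, adjusted p = 0.00184). Without library 9 the DAC call of HIST1H2AG passed (adjusted p = 0.00198).

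HIST3H2A, an H2A gene of the small chromosome 1 cluster, set the combination apart. Its counts were 242, 270.4 and 285 without treatment, 283, 204 and 225 with DAC, 261, 311 and 244 under ATRA and 862, 994 and 886 under DAC+ATRA. The 9 libraries of the first 3 groups lay between 204 and 311, and the DAC+ATRA libraries lay between 862 and 994. HIST3H2A stood at -0.17 (SE 0.13, adjusted p = 0.290) with DAC and at 0.03 (SE 0.13, adjusted p = 0.942) with ATRA, and rose by 1.78 (SE 0.13, adjusted p = 4.01e-10) with DAC+ATRA. Its interaction, the part of the DAC+ATRA change beyond the sum of the single-agent log2 changes, was 1.92 (SE 0.19, adjusted p = 2.08e-06). It was the only member of 47 called for the interaction, where 2.53% of all transcripts were called (0.808% higher and 1.72% lower), and the call held with each library left out. The share of all transcripts moved with single libraries: without library 9 it was 1.07% higher and 4.37% lower, and without library 10 0.660% and 1.01%. Its divergent neighbour HIST3H2BB had an interaction of -0.04 (SE 0.54, adjusted p = 0.979).

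Directly against DAC, DAC+ATRA called 3 of 47 members, all higher, where 11.4% of all transcripts were called, 6.1% higher and 5.29% lower (3.19% lower without library 10). They were HIST3H2A at 1.95 (SE 0.13, adjusted p = 1.02e-09), HIST2H2BE at 0.81 (SE 0.13, adjusted p = 1.61e-04) and HIST1H2BE at 0.60 (SE 0.15, adjusted p = 0.00582). The call of HIST1H2BE was lost without any of the 6 libraries compared (adjusted p up to 0.0343). The lowest member was HIST1H1D at -0.59 (SE 0.28, adjusted p = 0.171). Directly against ATRA, 17 members were higher and 8 lower with DAC+ATRA, where 34.9% of all transcripts were called, 26% higher and 8.88% lower (13.7% lower by edgeR with TMM). Among the 39 members that did not pass the filter only with or only without DAC, 14 were higher and 7 lower. Of the 47 members, 5 were lower without library 7, 10 or 11, where 6.66%, 6.81% and 6.99% of all transcripts were. Without library 9, 12 members were lower, where 10.22% of all transcripts were. HIST1H4B was the lowest at -2.27 (SE 0.32, adjusted p = 4.46e-06), and HIST1H3E, at 0 in all ATRA libraries, was the highest. The calls of HIST1H1D, HIST1H2AG, HIST1H2BC, HIST1H2BJ, HIST1H3A and HIST1H4E against ATRA were lost without at least 1 of the 12 libraries (adjusted p up to 0.0341, 0.0108, 0.0382, 0.0174, 0.0534 and 0.0399). Without library 9, HIST1H1E, HIST1H2AB and HIST1H4C passed against ATRA (adjusted p = 0.00589, 0.00301 and 0.00847), and HIST1H2AL passed without library 8 (0.00286). HIST1H1B also passed against ATRA without library 9, with no p-value given because it passed the filter only without DAC. HIST1H3B passed without library 4, 5, 9 or 12 (up to 0.00989). Without library 9, HIST1H2BK passed against DAC (0.00330).

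H3 genes held the highest ratios, in genes with few or no reads in untreated cells. HIST1H3E counts were 0 in all 3 libraries without treatment, 20.5, 51.6 and 31.9 with DAC, 0 in all 3 libraries under ATRA and 41.6, 63.2 and 54.4 under DAC+ATRA. No read was found in the 6 libraries without DAC, and every library with DAC had at least 19. Against a floor of 3 reads per untreated library, HIST1H3E was at least 12.6-fold higher with DAC and at least 19.3-fold higher with DAC+ATRA. HIST1H3G had 2, 2 and 1 reads in untreated libraries, 22, 48 and 36 with DAC and 42, 44 and 36 with DAC+ATRA. The ratio was 23.5 (95% interval 9.74 to 73.7) with DAC and 27.8 (11.6 to 87.3) with DAC+ATRA. HIST1H3I, under the filter, had 3, 5 and 7 reads with DAC and 4, 6 and 2 with DAC+ATRA, and none in the other 6 libraries.

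HIST1H3H, the H3 gene with the highest level per kb in the 2 groups with DAC, had counts of 170.0, 184 and 179 without treatment, 265, 283 and 277 with DAC, 222, 223 and 185 under ATRA and 313, 374 and 327 under DAC+ATRA. Its groups with DAC lay above the rest, and ATRA library 9 again lay nearest to untreated cells. HIST1H3H rose by 0.63 (SE 0.12, adjusted p = 2.07e-04) with DAC and 0.92 (SE 0.12, adjusted p = 1.56e-06) with DAC+ATRA. HIST1H3C stood at 0.24 and 0.20, not past the threshold. HIST1H3B and HIST1H3F stood at -0.65 and -0.78 with DAC, not past it, and fell, at -0.999 (SE 0.26, adjusted p = 0.00251) and -0.98 (SE 0.29, adjusted p = 0.00719) with DAC+ATRA.

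No H4 gene was called higher in the main test. HIST1H4B counts were 87.3, 59.2 and 67.4 without treatment, 17.3, 7.79 and 17.9 with DAC, 84.5, 71.0 and 44.9 under ATRA and 9.04, 17.9 and 12.4 under DAC+ATRA. All libraries with DAC were below 18 and all others above 44. HIST1H4B fell, at -2.30 (SE 0.32, adjusted p = 3.36e-06) with DAC and -2.39 (SE 0.32, adjusted p = 1.60e-06) with DAC+ATRA, or -2.52 and -2.59 relative to the median of all transcripts. HIST1H4E, the H4 gene with the highest level per kb, fell, at -0.74 (SE 0.21, adjusted p = 0.00520) and -0.89 (SE 0.21, adjusted p = 0.00103), and HIST1H4C, at -0.92 (SE 0.27, adjusted p = 0.00705) with DAC+ATRA. HIST1H4I stood at -0.01 and -0.30. HIST1H4K, which shares 92.6% of its windows with other copies, had the lowest interaction of the members, at -0.95 (SE 0.43, adjusted p = 0.261).

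HIST1H4H, whose longer transcript of 2163 bases was left out of the main test by its annotation, did the reverse. Its counts were 23.0, 19.1 and 25.9 without treatment, 122, 148 and 139 with DAC, 19.0, 20.9 and 21.6 under ATRA and 192, 195 and 192 under DAC+ATRA. Every library with DAC was above every other. Among 19373 transcripts of any type, HIST1H4H rose by 2.55 (SE 0.18, adjusted p = 7.75e-12) with DAC and by 3.04 (SE 0.18, adjusted p = 1.53e-13) with DAC+ATRA.

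**Figure D4:**
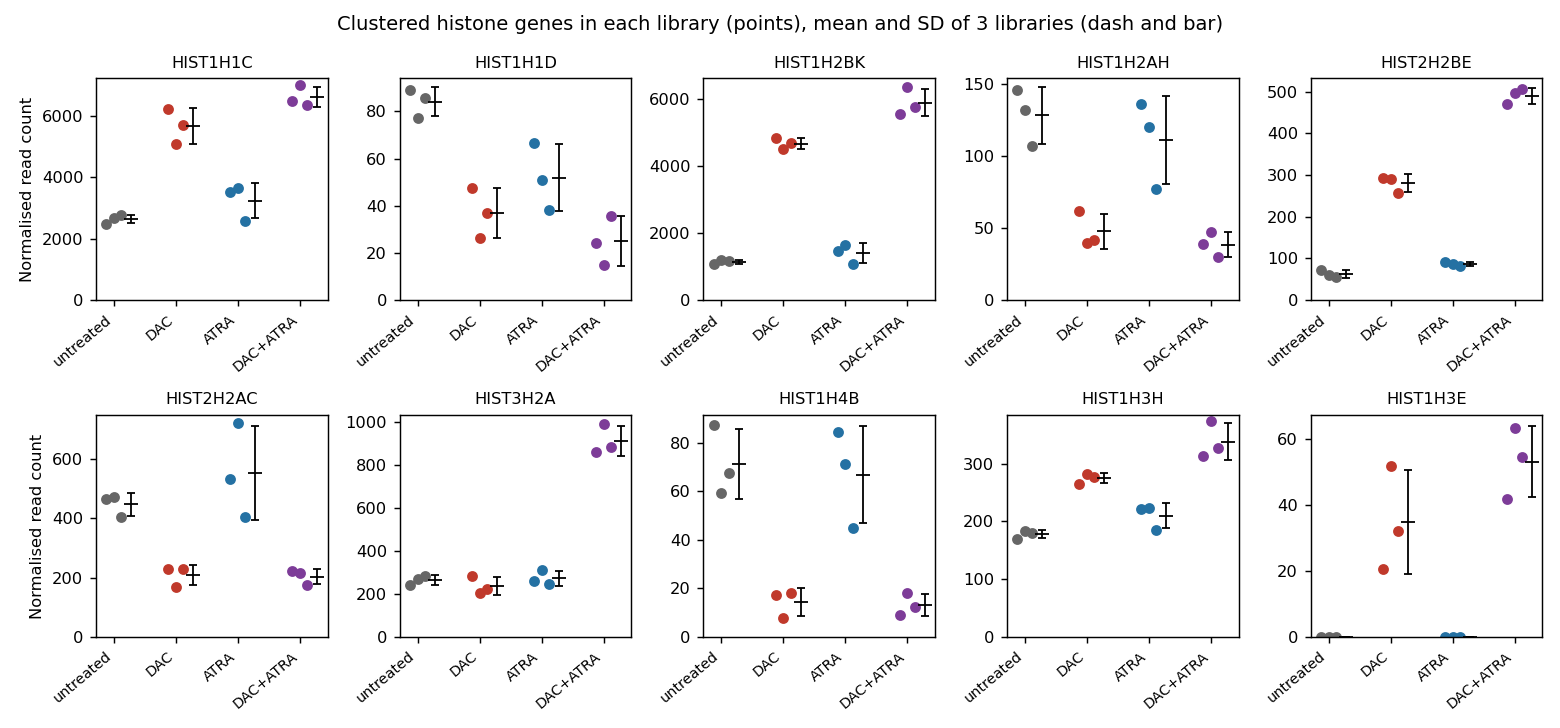
Normalised read counts (vertical axes, from 0) of 10 members in the 4 groups, with a point for each library and the mean and SD of 3 libraries beside them. HIST1H1C, HIST1H2BK, HIST2H2BE, HIST1H3H and HIST1H3E are higher with DAC, HIST1H1D, HIST1H2AH, HIST2H2AC and HIST1H4B lower, and HIST3H2A stands out with DAC+ATRA only, at 862 to 994.

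Many H2A and H2B genes lie head to head and start a short distance apart on opposite strands. There were 12 such pairs with 193 to 250 bases between the starts, and in 8 both genes were tested. With DAC, 2 pairs had partners called in opposite directions, 2 had partners called in the same direction, 1 had a single partner called and 3 had none. With DAC+ATRA the numbers were 2, 2, 3 and 1. Of all single transcripts tested, 30.7% were called higher and 8.7% lower with DAC, and 32.6% and 14.2% with DAC+ATRA. No such share was made for pairs, so the numbers of pairs are only described. HIST1H2AK and HIST3H2BB, partners in tested pairs, passed the filter only with DAC and were not called. The opposite pairs were HIST1H2BK with HIST1H2AH, 250 bases apart, and HIST2H2BE with HIST2H2AC, 235 bases apart, in both comparisons.

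For HIST1H2BK and HIST1H2AH, the ratio of their normalised read counts was 9.05 ± 1.76 in untreated cells, 101 ± 19.5 with DAC, 12.8 ± 1.75 under ATRA and 157 ± 32.6 under DAC+ATRA (mean ± SD, n = 3). For HIST2H2BE and HIST2H2AC it was 0.140 ± 0.0138 in untreated cells, 1.37 ± 0.308 with DAC, 0.165 ± 0.0404 under ATRA and 2.44 ± 0.408 under DAC+ATRA. In both pairs the ratios with DAC did not overlap those without it, and they are not levels per length. HIST1H2BG and HIST1H2AE, 232 bases apart, kept a ratio of 1.19 ± 0.203 in untreated cells, 1.14 ± 0.0791 with DAC, 1.12 ± 0.179 under ATRA and 1.15 ± 0.0403 under DAC+ATRA, while both genes rose. HIST1H2BL and HIST1H2AI both fell with DAC (-1.57 and -0.72). With DAC+ATRA, HIST1H2AI stood at -0.44 (SE 0.16, adjusted p = 0.0201).

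**Figure D5:**
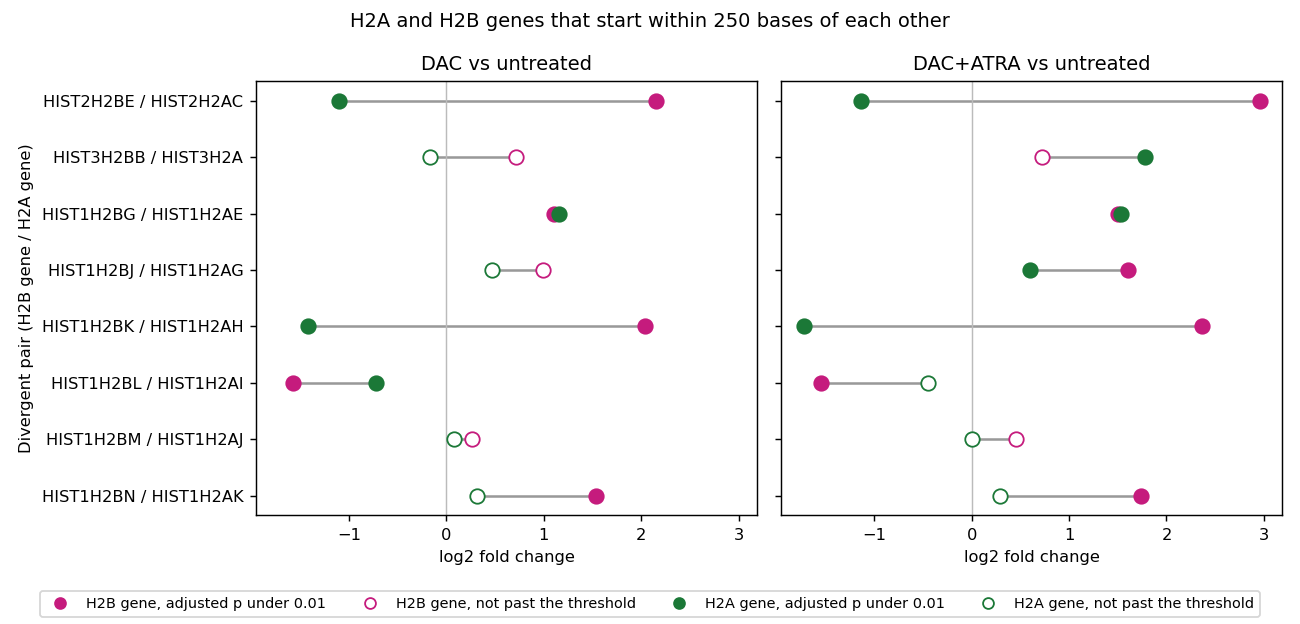
Log2 fold change (horizontal axis) of the H2B and the H2A gene of the 8 divergent pairs with both genes tested (vertical axis), for DAC and DAC+ATRA against untreated cells, with filled points past an adjusted p of 0.01. HIST1H2BK and HIST2H2BE lie at 2.03 and 2.15 with DAC while their partners HIST1H2AH and HIST2H2AC lie at -1.42 and -1.10. HIST1H2AK and HIST3H2BB passed the filter only with DAC.

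The sequences between the starts are shown for both opposite pairs and for a pair that rose together, since each serves genes on both sides. They are the plus strand of hg38 at chr6:27146856-27147105, chr1:149886683-149886917 and chr6:26216689-26216920, with the H2B gene leaving to the left on the minus strand and the H2A gene to the right. Capitals mark CCAAT, which reads ATTGG on the other strand. They also mark the box TATAAA, found as TTTATA when the strand is reversed, and the octamer ATGCAAAT, found as ATTTGCAT when the strand is reversed. CCAAT and TATAAA were matched 6 and 3 times between HIST1H2BK and HIST1H2AH, 3 and 2 times between HIST2H2BE and HIST2H2AC, and 3 and 1 times between HIST1H2BG and HIST1H2AE. Each held the octamer 1 time, nearer to the start of the H2B gene. TATAAA or TTTATA lay near both starts in both opposite pairs, and also in pairs with partners called in the same direction, HIST1H2BL with HIST1H2AI for DAC and HIST1H2BJ with HIST1H2AG for DAC+ATRA.
HIST1H2BK and HIST1H2AH: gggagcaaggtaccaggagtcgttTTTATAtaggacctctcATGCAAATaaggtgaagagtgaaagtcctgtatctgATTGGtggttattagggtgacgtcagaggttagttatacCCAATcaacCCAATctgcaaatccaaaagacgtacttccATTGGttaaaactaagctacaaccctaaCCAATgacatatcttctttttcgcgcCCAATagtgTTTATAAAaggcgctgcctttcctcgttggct
HIST2H2BE and HIST2H2AC: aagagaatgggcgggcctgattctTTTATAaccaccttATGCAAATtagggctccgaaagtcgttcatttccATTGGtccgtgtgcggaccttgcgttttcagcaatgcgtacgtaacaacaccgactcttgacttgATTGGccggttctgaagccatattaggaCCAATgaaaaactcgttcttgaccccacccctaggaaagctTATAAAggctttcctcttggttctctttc
HIST1H2BG and HIST1H2AE: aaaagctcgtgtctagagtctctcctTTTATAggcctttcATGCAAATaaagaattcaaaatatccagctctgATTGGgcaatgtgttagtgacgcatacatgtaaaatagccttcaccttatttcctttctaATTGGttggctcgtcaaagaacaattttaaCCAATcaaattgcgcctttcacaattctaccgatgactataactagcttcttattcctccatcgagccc

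The same motifs were counted on both strands in RefSeq promoters (GRCh38.p14), which run from 250 bases before to 50 after a start. Of the 71 members, 66 were matched by symbol. CCAAT was found in 84.8% of them and in 34.6% of all 35116 promoters, TATAAA in 66.7% and 11.5%, and the octamer in 39.4% and 1.77%. All matched H1, H2A, H2B and H3 promoters held CCAAT, and 3 of 13 H4 promoters did. The octamer was found in 14 of 18 H2B, 11 of 16 H2A and 1 of 13 H3 promoters and in no H1 or H4 promoter. In a divergent pair the windows of both genes overlap, so the same site can be counted for both. The shares of H2A and H2B promoters, and of all members, are therefore not shares of independent sequences. A match describes the letters in the window and shows no binding.

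The members also differed in how far their transcripts ran. The transcript of 56 members ended near the stem-loop, with a median length of 490.5 bases, and that of 13 members ran more than 100 bases past it, with a median of 1668. The tested members that passed the filter only with DAC or only without it were left out of the counts that follow, among them HIST1H3E and HIST3H2BB with the longer form. Of the other 7 with the longer form, 5 rose and 0 fell with DAC, and 7 rose and 0 fell with DAC+ATRA, by limma at the same threshold. Of 31 that ended at the stem-loop, 5 rose and 9 fell with DAC, and 6 rose and 11 fell with DAC+ATRA. Over all transcripts 30.7% were called higher and 8.7% lower with DAC, and 32.6% and 14.2% with DAC+ATRA. HIST2H2BE, HIST1H2BD, HIST1H2BE, HIST1H2BN and HIST1H3H had the longer form and were called higher with DAC, while HIST1H2BK and HIST1H1C, with the largest read counts, were represented by the short form. The medians with DAC were 1.00 and -0.30. This division was made after the values were seen and was not tested. The table counts reads per transcript model and does not show where each RNA ended.

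Among the other gene lists, CHAF1B, CPSF2, H2AFY2, HINFP, GINS2 and MCM6 were chosen for naming after their values were seen. H3F3C, H3F3A, SLBP, HINFP, CABIN1, TONSL, MCM5 and MCM3 were each the highest or lowest of their list with DAC+ATRA, so their values also decided their naming. The transcript used held 16.3% of the reads counted for CABIN1, 14.5% for MCM5, 33.7% for HINFP, 33.7% for TONSL and 40.2% for MCM3, so their values describe a transcript and not the gene. Replacement histones are also made outside S phase, from genes elsewhere in the genome. Of 16 listed genes, 9 were tested, and 2 rose with DAC, 0 with ATRA, and 2 rose and 1 fell with DAC+ATRA. Among all transcripts, 30.7% were called higher and 8.7% lower with DAC, 6.47% and 2.76% with ATRA, and 32.6% and 14.2% with DAC+ATRA. With all transcripts of a symbol summed, 3 of 12 rose and 1 fell with DAC, and 3 rose and 2 fell with DAC+ATRA, while with DAC equal library totals gave 2 up and 1 down and edgeR with TMM 2 up and 2 down. Of all symbols summed, 28.99% were called higher and 12.01% lower with DAC, and 31.35% and 16.74% with DAC+ATRA. With DAC, 27.1% of all transcripts were higher and 14.3% lower with equal totals, and 25.3% and 18.0% by edgeR with TMM. For ATRA, H2AFX was called higher without library 9 (adjusted p = 0.00842), and 1 gene was called lower with equal totals and by edgeR with TMM. Of all transcripts, 9.01% were higher with ATRA without library 9, and 5.06% and 4.51% lower with equal totals and TMM. H3F3C rose by 1.77 (SE 0.30, adjusted p = 3.59e-05) and H2AFY2, a macroH2A gene, by 1.62 (SE 0.38, adjusted p = 9.95e-04) with DAC+ATRA, the latter not past the threshold without library 12 (adjusted p = 0.0101). H3F3A fell, at -0.78 (SE 0.24, adjusted p = 0.00921), a call lost without library 1, 2, 3, 5, 7, 10, 11 or 12 (adjusted p up to 0.0464). H3F3B, the other H3.3 gene, had means of 5889 reads in untreated cells and 5868 with DAC+ATRA. H2AFX stood at 0.01 and, by edgeR with TMM, at -0.14. H1F0, the H1 gene of resting and differentiating cells, had counts of 10932, 12839.7 and 12268 without treatment, 17561, 10723 and 12764 with DAC, 14539.9, 15099 and 12939 under ATRA and 15314, 16449 and 15152 under DAC+ATRA, at 0.38 (SE 0.13, adjusted p = 0.0172) with DAC+ATRA, and it passed without library 4 or 5 (adjusted p = 0.00224 and 0.00557). The protein-coding transcript of H2AFZ had a mean of 1.54 in untreated cells and was not tested, but it held only 2.32% of the reads counted for H2AFZ.

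Of 16 genes for histone gene transcription and mRNA processing, 9 were tested, with 1 up and 0 down for DAC, 0 for ATRA, and 1 up and 1 down for DAC+ATRA. Over all transcripts 30.7% and 8.7% were called higher and lower with DAC, 6.47% and 2.76% with ATRA, and 32.6% and 14.2% with DAC+ATRA. Other settings moved the counts of the list. Equal library totals gave 1 up and 3 down for DAC and 1 up and 4 down for DAC+ATRA (14.3% and 20.0% of all transcripts lower). By edgeR with TMM they were 0 up and 4 down and 1 up and 4 down (18.0% and 20.5% lower). DESeq2 called 0 for DAC (29.6% of all transcripts higher and 7.99% lower). The gene called higher was SLBP, which encodes the stem-loop binding protein. The counts of its transcript were low, at 6.43, 3.64 and 4.62 without treatment, 10.8, 11.7 and 20.9 with DAC, 8.45, 7.28 and 5.83 under ATRA and 19.9, 15.8 and 9.89 under DAC+ATRA. This transcript held all but 3 of the reads counted for SLBP, but reads that fit several of its 6 transcripts may not have been counted, so its level as a gene is not known. SLBP reached 10 only in libraries with DAC, so its read ratios are given with no p-value as support, at 2.97 (95% interval 1.64 to 5.65) with DAC and 3.21 (1.78 to 6.08) with DAC+ATRA. It lost its call without library 2, 3 or 6 with DAC (adjusted p up to 0.0315) and without library 2 or 10 with DAC+ATRA (up to 0.0169). CPSF2, part of the cleavage complex, fell, at -0.38 (SE 0.10, adjusted p = 0.00444) with DAC+ATRA, and lost its call without library 1, 2, 3, 10 or 11 (up to 0.0208). NPAT, the coactivator of histone genes, stood at -0.45 with DAC and -0.40 with DAC+ATRA. HINFP, a factor of H4 promoters, stood at -0.74 (SE 0.24, adjusted p = 0.0130) with DAC+ATRA, not past the threshold by limma. It passed without library 1 or 6 (adjusted p = 0.00475 and 0.00668) and with equal library totals (-0.88, adjusted p = 0.00514). It also passed by edgeR with TMM (-0.93, adjusted p = 0.00327), and by limma among transcripts of any type (0.00995) and with only the groups compared (0.00385).

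Of 19 histone chaperone genes, 10 were tested, with 1 up and 3 down for DAC, 0 for ATRA, and 0 up and 5 down for DAC+ATRA. The shares of all transcripts called higher and lower were 30.7% and 8.7% for DAC and 6.47% and 2.76% for ATRA. For DAC+ATRA they were 32.6% and 14.2%. With all transcripts of a symbol summed the counts were 1 up and 8 down of 16 for DAC and 0 up and 8 down for DAC+ATRA. Of all symbols in that fit, 28.99% were called higher and 12.01% lower for DAC, and 31.35% and 16.74% for DAC+ATRA. Without any single untreated library the chaperone counts were 1 up and 1 down for DAC and 0 up and 3 down for DAC+ATRA. The share of all transcripts lower was then 6.398% to 6.96% for DAC and 11.03% to 11.78% for DAC+ATRA. Without library 10 or 11 the counts were also 0 up and 3 down for DAC+ATRA (11.37% and 11.81% of all transcripts lower). For ATRA, ASF1B was called higher without library 9 (adjusted p = 0.00453). CHAF1B, of the assembly factor that follows the replication fork, fell, at -0.58 (SE 0.13, adjusted p = 6.89e-04) with DAC and -1.09 (SE 0.13, adjusted p = 2.86e-07) with DAC+ATRA. CABIN1 rose by 1.62 (SE 0.31, adjusted p = 1.97e-04) with DAC and stood at 0.79 (SE 0.31, adjusted p = 0.0360) with DAC+ATRA. TONSL fell, at -1.13 (SE 0.34, adjusted p = 0.00904) with DAC+ATRA, a call lost without library 1, 2, 3, 7, 9, 10, 11 or 12 (adjusted p up to 0.0386).

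Of 29 S-phase genes, 14 were tested, with 8 down for DAC, 0 for ATRA and 12 down for DAC+ATRA, and 0 up in each. Over all transcripts 30.7% and 8.7% were called higher and lower with DAC, 6.47% and 2.76% with ATRA, and 32.6% and 14.2% with DAC+ATRA. The median of the 14 genes was -0.56 with DAC and -0.88 with DAC+ATRA. MCM3 and RFC4, which passed the filter only without DAC, are among the 14, so the counts and medians depend on the filter. MCM6, of the replicative helicase, fell, at -0.77 (SE 0.10, adjusted p = 1.89e-06) and -1.26 (SE 0.10, adjusted p = 1.24e-09) and GINS2, at -0.87 (SE 0.12, adjusted p = 3.13e-06) and -1.45 (SE 0.12, adjusted p = 1.57e-09). MCM3 stood at -1.60 and -1.77 but reached 10 in only 1 of the 6 libraries with DAC, and was no longer called with DAC+ATRA when all its transcripts were summed (-0.75, adjusted p = 0.0121). For DAC, equal library totals gave 12 down and edgeR with TMM 13, where 14.3% and 18.0% of all transcripts were called lower. MCM5 was the highest at 0.13 with DAC+ATRA, but stood at -0.60 (adjusted p = 2.90e-05) with all its transcripts summed. The part of S-phase genes in the falls of HIST1H4B, HIST2H2AC or HIST1H1D was not tested, and HIST1H2BK and HIST1H1C rose in the same libraries.

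Of 9 monocytic lineage markers, 1 to 4 were at 0 in a library, and MPO was the most abundant in all 12. The counts at 0 are of the transcripts used: that of CD33 held 5 of 10093 reads counted for the gene, and none of 28 PTPRC transcripts had a read. Their sum was 52677, 55632 and 49539.6 in untreated libraries, 34117, 22018 and 29175 with DAC, 36716, 38918 and 27495 with ATRA and 19150.1, 19498 and 18109 with DAC+ATRA. ITGAM, an integrin of mature myeloid cells, rose by 2.08 with DAC and 3.75 with DAC+ATRA, and LYZ, for lysozyme, by 2.27 and 2.73, while MPO, of granule precursors, fell, at -0.99 and -1.80. Of the 4 tested markers, ITGAM was called higher and MPO lower with ATRA alone, where 6.47% and 2.76% of all transcripts were. MPO lost its call for ATRA without library 1, 2 or 9 (adjusted p by limma up to 0.0317). Of 13 markers of other cell types, 6 to 10 were at 0 in a library, and CD79A was the most abundant in all 12. Their sum was 164, 141 and 161 in untreated libraries, 1046, 1090.1 and 1159 with DAC, 401, 423 and 276 with ATRA and 1547, 1644 and 1663 with DAC+ATRA. Of 3 tested, 2 were called higher and 0 lower with ATRA alone, where 6.47% and 2.76% of all transcripts were. The part of these marker changes in those of HIST1H2BK, HIST3H2A and the other members was not tested.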

How the data were processed

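The authors deposited a signal, read counts per transcript divided by 1 size factor for each library, made with STAR, HTSeq and DESeq2 on hg38, versions not given. Whole reads were recovered from the smallest step in each library (tolerance 0.01 reads). Transcripts were typed by identifier in GENCODE 44. Protein-coding transcripts reaching 10 in 3 or more libraries entered 1 limma 3.58.1 model of all 12 libraries (R 4.3.3, log2(value + 1), robust trended eBayes), with Benjamini-Hochberg adjustment over 8784 transcripts and a threshold of 0.01. The model was tested on simulated data. Alternatives used edgeR 4.0.16, DESeq2 1.42.0, equal totals, other filters and types, summed transcripts, and each library left out.

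Members and lists were chosen with earlier results of these data known. Listed genes were represented by their protein-coding transcript with the highest mean. Exact Clopper-Pearson intervals (95%) and the floor of 3 reads per library cover counting error only. Sequences came from hg38, and promoters from RefSeq GRCh38.p14.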

Additional observations from a re-analysis of the deposited data

Results flagged for a closer look

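HIST3H2A was set apart by a difference between groups: the log2 change with DAC was larger with ATRA than without it, with an interaction of 1.92 (SE 0.19, adjusted p = 2.08e-06) by limma.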

How the results depend on the processing

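No paired analysis was possible because the library columns carry a running number from 1 to 12 and no pairs. Counts for ATRA were 1 of 47 members at adjusted p < 0.05, where 9.44% of all transcripts were called higher and 5.25% lower. With 1 library left out they were 0 to 2, where 5.13% to 9.01% were called higher and 1.55% to 2.72% lower. Summed reads over untreated were 1.74 for DAC and 2.14 for DAC+ATRA with equal totals, and 1.02 and 1.38 without the 2 members with the highest mean, an alternative chosen after the data were seen; H1 sums then were 0.512 and 0.468. Without HIST3H2A, also chosen then, the H2A sum for DAC+ATRA was 0.892. Directions turned with DAC+ATRA for H2AFX (-0.14 with equal totals, -0.14 with TMM, -0.0999 to 0.0847 with 1 library left out), H3F3B (0.00344 with summed transcripts, -0.0499 to 0.0348) and MCM5 (-0.0168 with equal totals, -0.60 with summed transcripts, -0.0771 with TMM, -0.0572 to 0.450). Technical triplicates limit every p-value; the cause was not tested.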
